A study of Bos taurus with 6 samples.

Results

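The genes described here, 10 in all, belong to the contractile actin cytoskeleton and were measured on Affymetrix Bovine Genome arrays in bovine articular chondrocytes, the cells that lay down and maintain the matrix of joint cartilage: the tropomyosins TPM1, TPM2, TPM3 and TPM4, the transgelins TAGLN and TAGLN2, the calponins CNN1 and CNN3, smooth muscle α-actin (ACTA2) and myosin light chain kinase (MYLK). A probe set, the group of array probes that together report a transcript, was taken when the array annotation gave it a single gene symbol and that symbol was 1 of these 10. This gave 14 probe sets of the 24016 tested, 2 each for TPM1, TPM2, TPM3 and MYLK and 1 for each of the other 6 genes. The cells were isolated from full-thickness cartilage of bovine metacarpal-phalangeal joints and plated at high density in micromass culture. After a night in culture, 3 cultures received TGF-β1 at 5 ng/ml and 3 received vehicle only (labelled untreated), and RNA was taken 8 hours later. The study used cartilage of 3 cows and grew each with and without TGF-β1. Cultures are numbered 1 to 3 in each group, but the labels do not tie the number to a cow, and give neither age nor breed.

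Tropomyosins are coiled-coil proteins that lie along actin filaments and govern which other proteins can bind there. Calponins and transgelins are related actin-binding proteins. CNN1 and TAGLN are classical smooth muscle genes, while CNN3 and TAGLN2 are found in many cell types. ACTA2 encodes the actin of smooth muscle and of myofibroblasts, and MYLK encodes the kinase that switches on myosin II by phosphorylating its regulatory light chain. Many of these genes are controlled by serum response factor (SRF), and TGF-β is known for raising several of them in fibroblasts that become contractile. In cultured chondrocytes, thick bundles of actin are a known companion of cell flattening and of the loss of the rounded chondrocyte form.

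Values are log2 signals centred on the median of the 6 arrays for each probe set. They show how arrays differ and not how strongly a gene is expressed, so levels of different genes cannot be compared, and whether chondrocyte markers are high in these cultures could not be read from them. A change is the log2 difference, TGF-β1 minus untreated, from limma with a term for the replicate number (called the paired fit). Rose and fell are used for an adjusted p under 0.05 in that fit, by Benjamini-Hochberg over the 24016 probe sets. SE is its standard error, which limma draws from the spread of the pairs and from a spread shared by all probe sets. The first difference among the arrays was the replicate: over 34 probe sets of cell cycle genes, the median was 2.28 and 2.10 log2 units on the untreated and TGF-β1 arrays of replicate 3, against -0.30 to -0.04 on the other 4. The TGF-β1 array of replicate 2 had bright bacterial spike-in controls, with a median of 1.53 log2 units over 18 probe sets against -0.17 to 0.06 on the other 5 arrays. On the same array the 5′ probe set of the actin control minus its 3′ probe set, a sign of RNA quality, was -0.52 log2 units, against -0.17 to 0.39 on the others. Medians of whole arrays lay between -0.01 and 0.02 log2 units.

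The contractile genes did not move as a block. TAGLN and TAGLN2 rose with TGF-β1, while 1 of the 2 probe sets of TPM2, both probe sets of TPM3, both of MYLK and that of CNN3 fell. In the paired fit, 2 of the 14 probe sets rose and 6 fell, and the remaining 6 did not pass. Over all probe sets, 5.90% passed, 2.44% higher and 3.46% lower, against 57.1% of these 14. The genes were chosen with earlier results of these data known, and dim probe sets stayed in the share over all probe sets. The comparisons with all probe sets are therefore descriptive and do not test the genes as a set. The median change of the 14 was -0.28 log2 units, against 0.01 over all probe sets. All 3 pairs of arrays had the same sign in 10 of the 14 probe sets, 3 of them higher and 7 lower, against 40.7% of all probe sets (20.6% higher and 20.0% lower). The calls rest on the pairing: without the replicate number, limma put none of the 14 at an adjusted p under 0.05 (lowest 0.564) and 2, CNN3 and TAGLN, at an unadjusted p under 0.05, a threshold that 5.73% of all probe sets met. The unequal-variance test of the methods also put none at an adjusted p under 0.05, and put CNN3 alone, and 4.30% of all probe sets, at an unadjusted p under 0.05. They rest on replicate 2 as well, since without its pair of arrays the paired fit called 0 of the 14. The 8 that had passed then had adjusted p of 0.0550 to 0.151. Their direction could not change there, because all 3 pairs of each had the same sign. Sizes changed little: without replicate 2, MYLK probe set a had -1.11 log2 units against -1.09 with it, TPM2 probe set a -1.04 against -0.92, and TAGLN2 0.76 against 0.78, while CNN3 had -0.53 against -0.67. That fit, which has fewer arrays to estimate the spread from, still called 272 probe sets higher and 267 lower over the whole array.

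**Figure D1:**
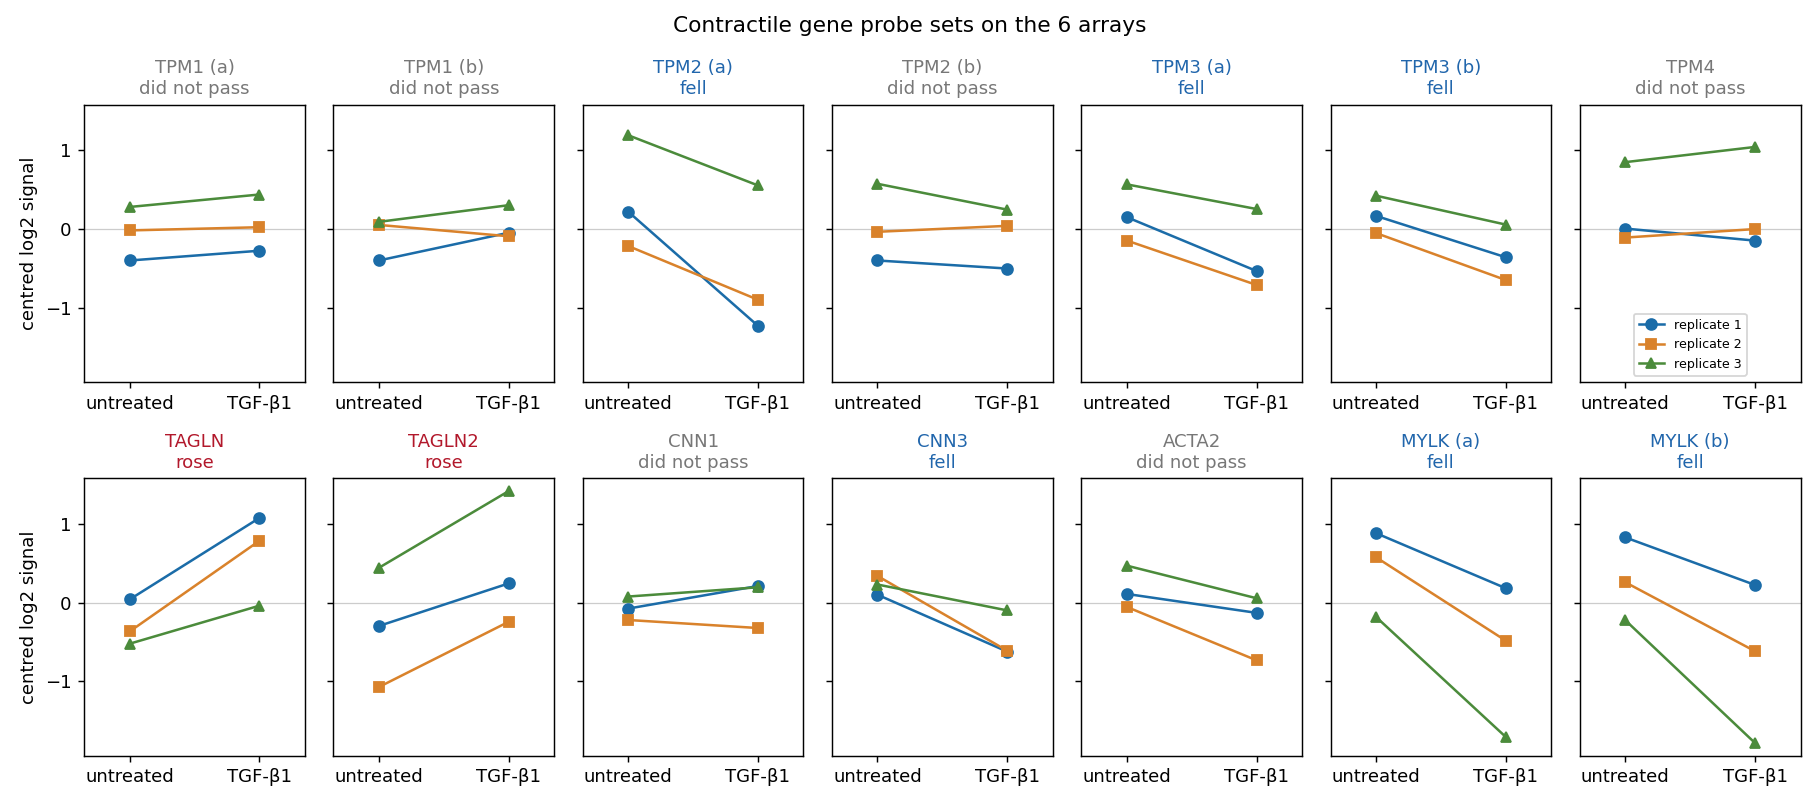
Centred log2 signal (y axis) of each of the 14 probe sets in untreated and TGF-β1 cultures (x axis), with a line joining the 2 arrays of each replicate. The letters a and b mark the 2 probe sets of a gene. The lines of TAGLN and TAGLN2 slope upward in all 3 replicates, those of MYLK, TPM3, CNN3 and TPM2 (a) slope downward in all 3, and the distance between replicates is often larger than the slope.

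Among the tropomyosins, TPM2 and TPM3 were lower with TGF-β1 and TPM1 and TPM4 were not distinguishable from no change. TPM2 encodes β-tropomyosin, a partner of α-tropomyosin in muscle that cells without a contractile apparatus also use. Its first probe set, Bt.12477.1.S1_a_at (a), read 0.22, -0.22 and 1.19 log2 units in untreated replicates 1, 2 and 3 and -1.23, -0.90 and 0.55 in the TGF-β1 cultures. Every culture with TGF-β1 was below its untreated partner, but the groups overlapped because replicate 3 was high in both. The decrease, -0.92 log2 units (SE 0.16, n = 3 pairs) or 1.90-fold, had an adjusted p of 0.0140, and replicate 1 had the largest difference (-1.45, against -0.68 and -0.64).

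The second probe set of TPM2, Bt.12477.2.S1_at (b), gave another answer. It read -0.40, -0.04 and 0.57 log2 units in the untreated cultures and -0.50, 0.04 and 0.24 with TGF-β1, so the groups overlapped. Replicate 2 was higher with TGF-β1 (0.08), and replicates 1 and 3 were lower (-0.10 and -0.33). The change was -0.12 log2 units (SE 0.12, adjusted p = 0.669), with a 95% interval of -0.39 to 0.15. The change of probe set a minus that of probe set b was -1.35, -0.76 and -0.31 log2 units in replicates 1, 2 and 3, with a mean of -0.81. An exact sign-flip permutation test of this difference gave p = 0.25, 2-sided, which is the smallest value that 3 pairs allow. In the array maker's naming, the ending _a_at marks probes that match several transcripts of a single gene, and the positions of the probes on TPM2 were not used here. TPM2 was the only gene of the 4 with a pair of probe sets in which 1 passed and the other did not.

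TPM3 encodes a tropomyosin of slow muscle fibres whose shorter forms are found in nearly all cells, and its probe sets moved together. Bt.9448.1.S1_at (a) read 0.15, -0.15 and 0.56 log2 units in the untreated cultures and -0.54, -0.71 and 0.25 with TGF-β1. Bt.9448.1.S2_at (b) read 0.16, -0.05 and 0.42 log2 units in the untreated cultures and -0.36, -0.65 and 0.05 with TGF-β1. In both, all 3 replicates were lower with TGF-β1, and the TGF-β1 culture of replicate 3 lay within the untreated range. Both fell over the 3 pairs, probe set a with a change of -0.52 (SE 0.12, adjusted p = 0.0348) and probe set b with -0.50 (SE 0.11, adjusted p = 0.0325). The first change minus the second was -0.02 log2 units on average and -0.16 to 0.05 in the replicates. Both TPM3 calls were lost without replicate 1 (adjusted p = 0.188 and 0.144), without replicate 2 (0.151 and 0.141) and after quantile normalization (0.121 and 0.0816). The call of TPM2 probe set a was lost without replicate 2 (0.0610) and after quantile normalization (0.106).

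TPM1, which encodes α-tropomyosin, is a familiar TGF-β target in epithelial cells. Bt.6442.1.S1_at (a) read -0.40, -0.02 and 0.28 log2 units in the untreated cultures and -0.28, 0.02 and 0.44 with TGF-β1. Bt.25001.1.A1_at (b) read -0.40, 0.05 and 0.09 in the untreated cultures and -0.05, -0.09 and 0.30 with TGF-β1. The order of the replicates was the same in both groups for probe set a, and the groups overlapped in both probe sets. The changes were 0.11 log2 units (SE 0.10, 95% interval -0.13 to 0.35, adjusted p = 0.660) and 0.14 (SE 0.13, 95% interval -0.15 to 0.42, adjusted p = 0.624). The upper ends of these intervals are below a change of 0.5 log2 units, and the intervals are not adjusted for the number of probe sets.

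TPM4, the fourth tropomyosin gene, encodes a form typical of cells outside muscle. Its probe set, Bt.9589.1.S1_at, read 0.0030, -0.11 and 0.85 log2 units in the untreated cultures and -0.15, -0.0030 and 1.04 with TGF-β1. Replicate 3 stood well above the others in both groups, and the change was 0.05 log2 units (SE 0.11, 95% interval -0.21 to 0.31, adjusted p = 0.876). Its sign turned to -0.022 without replicate 3. Within each replicate, the change of TPM1 was above those of both TPM3 probe sets and of TPM2 probe set a, by 0.60 to 1.06 log2 units on average. The changes of these 3 probe sets minus that of TPM4 were -0.97 to -0.55 on average, and below 0 in each replicate. Of the 18 comparisons between probe sets of different tropomyosins, 12 had the same sign in all 3 replicates. Among them, TPM1 probe set a minus TPM3 probe set b was 0.60 ± 0.068 log2 units (SD, n = 3 pairs), and TPM3 probe set a minus TPM4 was -0.57 ± 0.089, so the replicates were close to each other. The exact sign-flip test gave p = 0.25 for each of the 12, a value fixed by the number of pairs, and so does not separate them from the others at 0.05.

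**Figure D2:**
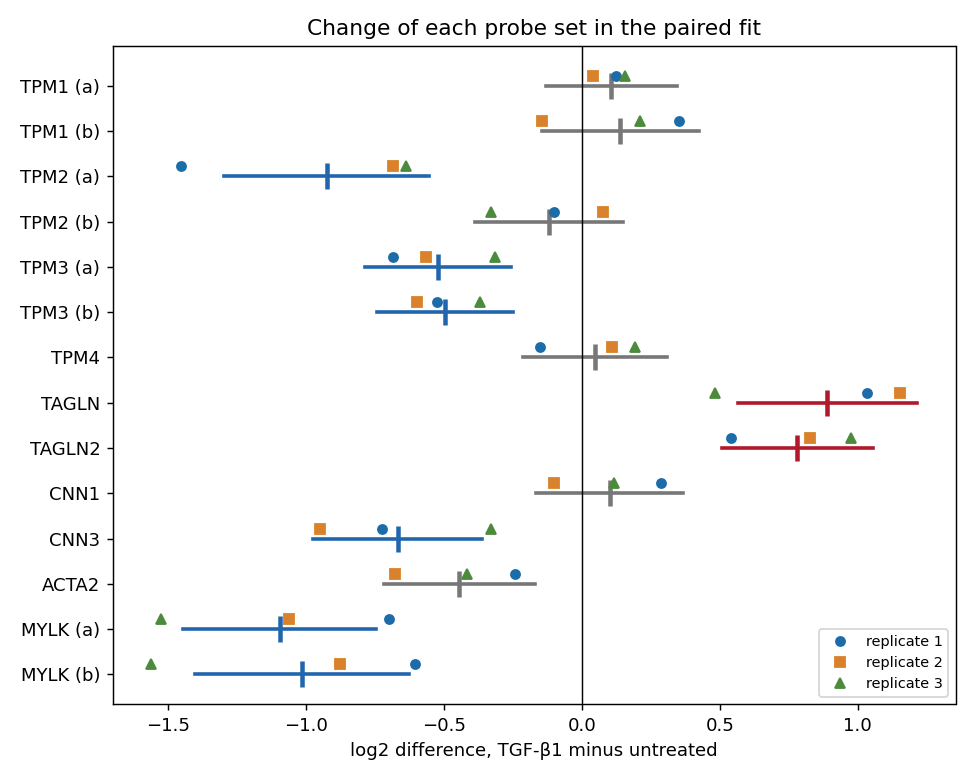
Log2 difference, TGF-β1 minus untreated (x axis), of each probe set (y axis). Vertical ticks are the change in the paired fit, bars its unadjusted 95% interval (red rose, blue fell, grey did not pass), and symbols the differences of the 3 replicates. TAGLN and TAGLN2 lie at 0.89 and 0.78, the probe sets of MYLK near -1, and those of TPM1, TPM4 and CNN1 have intervals that cover 0.

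Both transgelin genes rose. TAGLN encodes transgelin (SM22α), an early marker of smooth muscle that binds actin filaments. Its probe set, Bt.16055.2.S1_a_at, read 0.04, -0.37 and -0.52 log2 units in untreated replicates 1, 2 and 3 and 1.07, 0.78 and -0.04 with TGF-β1. All 3 pairs were higher with TGF-β1, and the groups met only where the TGF-β1 culture of replicate 3 lay just under the untreated culture of replicate 1. The increase was 1.85-fold, or 0.89 (SE 0.14, n = 3 pairs) on the log2 scale with an adjusted p of 0.00965, with replicate differences of 1.03, 1.15 and 0.48.

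TAGLN2 encodes the transgelin found in many cell types. Bt.23135.1.S1_at read -0.30, -1.07 and 0.44 log2 units in the untreated cultures and 0.24, -0.24 and 1.42 with TGF-β1. Each culture was higher than its partner, and the groups overlapped because the distance between replicates was larger than the change. The increase was 0.78 log2 units (SE 0.12, n = 3 pairs) with an adjusted p of 0.00786, or 1.72-fold, with replicate differences of 0.54, 0.83 and 0.97. Without the replicate number its adjusted p was 0.988. Replicate 3 was the lowest for TAGLN and the highest for TAGLN2 in both groups, while replicate 1 was above replicate 2 for both genes. The change of TAGLN exceeded that of TAGLN2 by 0.11 log2 units on average, with differences of 0.49, 0.32 and -0.49 in the replicates (exact sign-flip p = 0.75). Neither call held without replicate 2 (adjusted p = 0.0785 and 0.0602), and both held without replicate 1 or 3 and after quantile normalization.

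The calponins parted. CNN3, which encodes the acidic calponin found widely outside muscle, had the only probe set of the 14 in which the groups did not overlap, a pattern seen in 4.91% of all probe sets in this direction and 11.0% in either. Bt.5099.1.S1_at read 0.10, 0.34 and 0.23 log2 units in the untreated cultures and -0.62, -0.61 and -0.10 with TGF-β1. The 3 untreated cultures lay close together, and the TGF-β1 culture of replicate 3 came nearest to them. The decrease in CNN3 was 1.59-fold, a change of -0.67 (SE 0.14, n = 3 pairs, adjusted p = 0.0247). The call was lost without replicate 1 or 2 (adjusted p = 0.0890 and 0.138) and after quantile normalization (0.0544).

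CNN1 encodes the basic calponin of differentiated smooth muscle. Bt.6630.1.S1_at read -0.08, -0.22 and 0.08 log2 units in the untreated cultures and 0.21, -0.32 and 0.19 with TGF-β1. Replicate 2 was lower with TGF-β1 and the others higher. Its change was 0.10 log2 units (SE 0.12, 95% interval -0.16 to 0.37, adjusted p = 0.722). The range over the arrays was 0.53 log2 units, against a median of 1.20 for the members and 0.56 over all probe sets. Whether this probe set detects CNN1 RNA in these cells was not tested. The change of CNN1 was above that of CNN3 in all 3 replicates, by 1.01, 0.85 and 0.45 log2 units, with a mean of 0.77 ± 0.29 (SD, n = 3 pairs). The sign-flip test cannot go below 0.25 here and does not decide whether the calponins differ.

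ACTA2, the myofibroblast actin, was lower with TGF-β1 in every replicate and did not pass the test. Bt.12825.1.S1_at read 0.11, -0.05 and 0.47 log2 units in the untreated cultures and -0.13, -0.73 and 0.05 with TGF-β1. The groups overlapped, and the largest difference was in replicate 2 (-0.68, against -0.24 and -0.41). The change was -0.44 log2 units (SE 0.12, adjusted p = 0.0715), with an unadjusted 95% interval of -0.72 to -0.17 that holds no increase. In none of the alternatives did ACTA2 pass the threshold or turn upward, and its change ranged from -0.61 to -0.21 log2 units over them.

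MYLK showed the largest decrease of the 10 genes, and its probe sets gave the same picture. Bt.11424.1.S1_at (a) read 0.88, 0.58 and -0.18 log2 units in untreated replicates 1, 2 and 3 and 0.18, -0.48 and -1.71 with TGF-β1. Bt.5283.1.S1_at (b) read 0.83, 0.26 and -0.22 in the untreated cultures and 0.22, -0.62 and -1.78 with TGF-β1. In both probe sets the replicates kept the same order in each group, replicate 1 highest and replicate 3 lowest, and the TGF-β1 culture of replicate 1 stayed above the untreated culture of replicate 3. The decrease was 2.13-fold in probe set a, with a change of -1.09 (n = 3 pairs, SE 0.15, adjusted p = 0.00533), and 2.02-fold in probe set b, with -1.01 (SE 0.17, n = 3 pairs, adjusted p = 0.0115). Replicate 3 had the largest difference in both (-1.52 and -1.56). The first change minus the second was -0.08 log2 units on average and between -0.18 and 0.04 in the replicates. Both calls held without replicate 1 or 3 and after quantile normalization, and both were lost without replicate 2 (adjusted p = 0.0550 and 0.0753). The smooth muscle and short forms of the kinase, and the small protein telokin, come from the same gene, and which of them these probe sets read was not tested.

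Differences between replicates were large for these genes. Averaged over both groups, the distance between replicate 3 and the mean of replicates 1 and 2 was larger than the TGF-β1 change in 11 of the 14 probe sets, the exceptions being TPM3 probe set b, TAGLN and CNN3. Replicate 3 was above the mean of the other replicates in both groups in 11 probe sets and below it in both groups in 3, those of TAGLN and MYLK. For TPM2 probe set a it stood 1.19 log2 units above them in the untreated culture and 1.62 above them in the TGF-β1 culture. TAGLN2 was 1.13 and 1.42 above them, and TPM4 0.90 and 1.12. For MYLK probe set a the same difference was -0.91 and -1.56, and for TAGLN it was -0.36 and -0.97. Cell cycle genes were also high on both arrays of replicate 3. With TGF-β1, 3 of their 34 probe sets fell (of MCM4, CENPF and TYMS) and 0 rose in the paired fit, 8.82% against 5.90% of all probe sets. The other probe set of CENPF and that of TYMS each had -0.03 log2 units. Over the 34, the median change was -0.19 log2 units. Of the 34, 20 were lower in all 3 pairs, a larger share than the 4810 of all 24016 probe sets (20.0%). The part of the cell cycle in the values of the contractile genes was not tested.

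**Figure D3:**
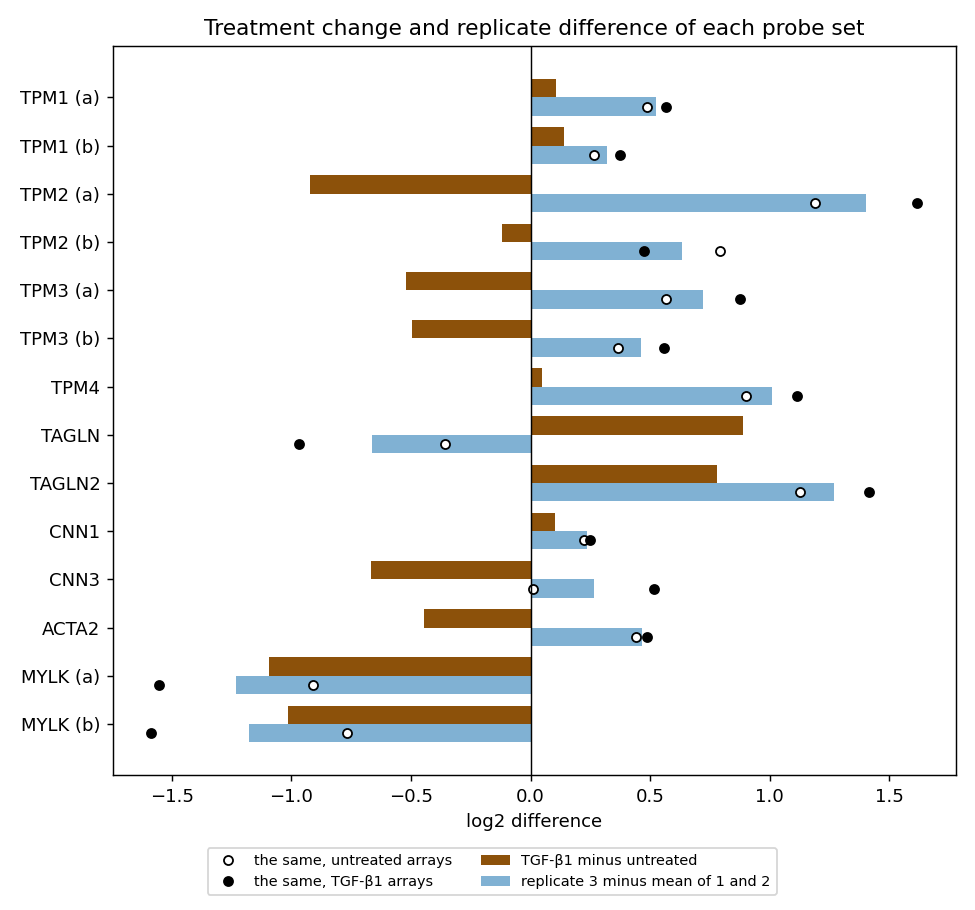
For each probe set (y axis), the TGF-β1 change in log2 units (brown bars) beside the difference between replicate 3 and the mean of replicates 1 and 2 averaged over both groups (blue bars, with open circles for untreated and filled circles for TGF-β1 arrays). The blue bar is longer than the brown in 11 of the 14 probe sets, and it points left only for TAGLN and MYLK.

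Genes related to the members were mostly not distinguishable from no change. Of 17 other genes of the same families (actins, calponin, transgelin, tropomodulins, leiomodins and myosin light chain kinases), 11 were measured with 14 probe sets, and 0 passed in either direction, with a median of -0.01 log2 units. In the same 14, limma on the groups alone also called 0, with 0 at an unadjusted p under 0.05. Their median range over the 6 arrays was 0.39 log2 units, against 0.56 over all probe sets and 1.20 for the members. Since centring removes levels, probe sets too dim to show a change could not be told apart from unchanged genes. The smallest p belonged to CNN2, the third calponin, and to ACTG1, the γ-actin of all cells. A probe set of CNN2 had a change of -0.60 log2 units (SE 0.16, adjusted p = 0.0728) and the other -0.30 (SE 0.17, adjusted p = 0.377), lower mainly in replicate 3 (-1.13 and -0.84). The 2 probe sets of ACTG1 had -0.28 (adjusted p = 0.275) and 0.0024 (adjusted p = 0.994). β-Actin (ACTB) had -0.04 log2 units (95% interval -0.28 to 0.20).

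A list of 42 genes of the actomyosin motor and its regulators, which holds myosin II chains, myosin phosphatase subunits and actin monomer binders among others, had 25 genes measured with 39 probe sets. Of these, 1 rose and 1 fell, 5.13% together against 5.90% of all probe sets. PFN1, which encodes profilin, the protein that feeds actin monomers to growing filaments, read 0.15, -0.15 and 1.72 log2 units in the untreated cultures and -0.66, -0.90 and 1.07 with TGF-β1. The replicates were lower with TGF-β1 by similar amounts (-0.82, -0.75 and -0.65), and PFN1 fell with a change of -0.74 (SE 0.11, n = 3 pairs, adjusted p = 0.00577). SMTN, which encodes smoothelin, a protein of contractile smooth muscle, rose by 0.61 (SE 0.13, n = 3 pairs, adjusted p = 0.0283), from 0.0027, -0.15 and -0.39 in the untreated cultures to 0.51, 0.77 and -0.0027 with TGF-β1. The TGF-β1 culture of replicate 3 was again the lowest of its group for SMTN, as it was for TAGLN. The SMTN call was lost without replicate 1 or 2, while PFN1 was called without replicate 1, 2 or 3 (adjusted p = 0.0337, 0.0441 and 0.00667).

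SRF itself had a change of -0.01 log2 units (95% interval -0.25 to 0.22), and its 6 values differed little. They ran from -0.01 to 0.03 log2 units, against a median range of 0.56 over all probe sets. Whether this probe set detects SRF RNA in these cells was not tested. Of 13 genes listed as SRF, its cofactors and partners, 8 were measured with 1 probe set each. Of these, 1 rose and 0 fell, 12.5% together against 5.90% of all probe sets. FHL2, which encodes a LIM-domain protein that binds SRF and integrins, read -0.70, -1.80 and 0.72 log2 units in the untreated cultures and 0.70, -0.70 and 1.56 with TGF-β1. All replicates were higher with TGF-β1, and FHL2 rose by 1.11 log2 units (n = 3 pairs, SE 0.13, adjusted p = 0.00242). FHL1, of the same family, had -0.54 (SE 0.16, 95% interval -0.91 to -0.17) and did not pass after adjustment.

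**Figure D4:**
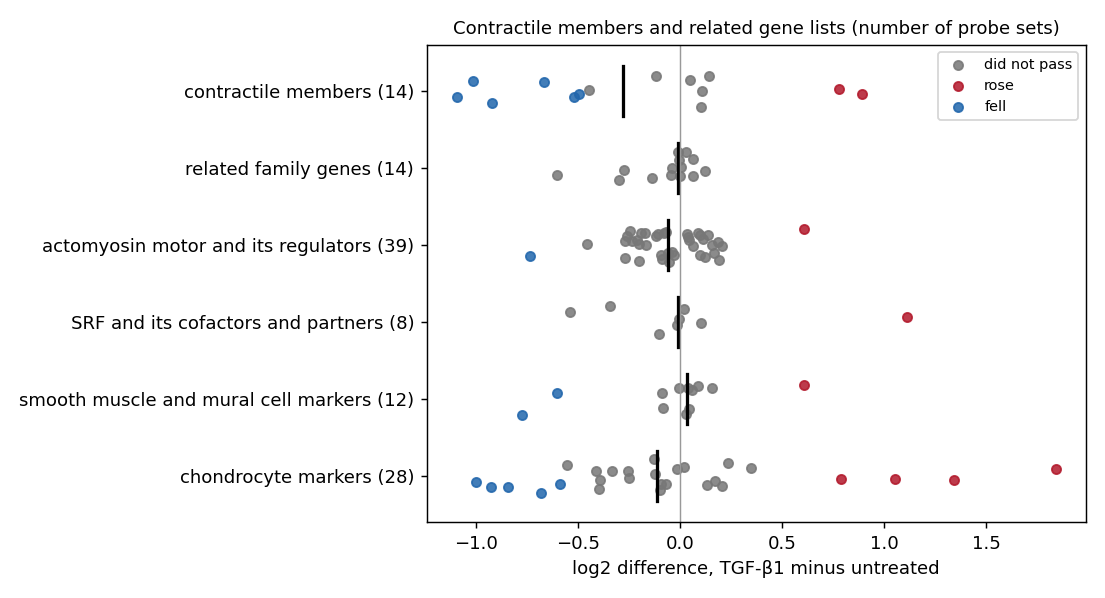
Log2 difference, TGF-β1 minus untreated (x axis), of the probe sets of the 10 contractile members and of 5 lists of related or marker genes (y axis, with the number of probe sets), coloured by the call of the paired fit. Black lines are medians. The members hold 8 called probe sets on both sides of 0, while all 14 probe sets of other genes of their families did not pass. The latter also varied less over the arrays (median range 0.39 against 1.20 log2 units).

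Markers of other cell types were read beside these results, because the members are also expressed by muscle and mural cells. In bulk cultures, a change in the number of cells of a type and a change in RNA per cell cannot be told apart. Of 12 probe sets of smooth muscle and mural cell markers, 1 rose (SMTN) and 2 fell (of the 3 of CSPG4, the proteoglycan NG2, which chondrocytes also express), and their median on an array ranged from -0.04 to 0.01 log2 units in the untreated and from -0.03 to 0.13 in the TGF-β1 cultures. MYH11, the smooth muscle myosin, had 0.15 log2 units (adjusted p = 0.603), and the muscle filament gene DES 0.03 (adjusted p = 0.960). Of 24 probe sets of skeletal muscle markers, 1 rose (of CKM) and 1 fell (of TNNI2), 8.33% together against 5.90% of all probe sets. Of 15 endothelial probe sets, 1 rose (of ERG), or 6.67%, and of 12 of macrophages and leukocytes, 0 passed in the paired fit. The other probe set of CKM had 0.15 log2 units (adjusted p = 0.614) and that of ERG 0.04 (adjusted p = 0.913). Of 13 fibroblast and dedifferentiation probe sets, 3 fell, those of COL1A2 and S100A4 (23.1%). The share called was 25.0% for the smooth muscle and mural cell probe sets. Array medians of these lists overlapped between the groups, except that the endothelial list had -0.04 to -0.01 log2 units in the untreated and 0.01 to 0.05 in the TGF-β1 cultures. Of 28 probe sets of chondrocyte markers 4 rose, of PRG4 and COMP, and 5 fell, of COL11A1 and CNMD, 32.1% together. Their median change was -0.11 log2 units. Other probe sets of PRG4 and COL11A1 did not pass, with changes of -0.10 to 0.35 and of -0.41 to 0.02 log2 units. Since centring removes levels, none of these markers can be called absent, and the part of other cells in the changes of the contractile genes was not tested.

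Genes beside the members on the chromosomes, by the order of protein-coding genes in the RefSeq annotation of the ARS-UCD2.0 assembly, were measured with 17 probe sets. Of these, 1 passed the test, against 5.90% of all probe sets. It was a probe set of TLN1, the neighbour of TPM2, and it fell with a change of -0.45 (SE 0.11, n = 3 pairs, adjusted p = 0.0476). TLN1 encodes talin, which links integrins to actin, and its other probe set had -0.00058 (adjusted p = 0.999). The neighbours of TAGLN, TAGLN2, MYLK and CNN3 that were measured did not pass. The 16 neighbouring probe sets that did not pass had changes of -0.53 to 0.22 log2 units, and 2 of them had an unadjusted p under 0.05, those of CFAP141 beside TPM3 (-0.53, adjusted p = 0.131) and ALG14 beside CNN3 (-0.35, adjusted p = 0.107).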

How the data were processed

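The data are 6 Affymetrix GeneChip Bovine Genome arrays of amplified RNA (50 ng of total RNA each). The authors made the deposited log2 values in GeneSpring by Robust Multichip Average (RMA in the submitters' processing notes; versions are not given in the sources used here). The median of every probe set over the arrays is 0 (largest absolute value 5e-07), so levels are lost and dim probe sets could not be left out. Scanner files were not analysed here. The table has 24128 rows, of which 112 are Affymetrix controls and stayed out of the fit. The platform annotation gave 13292 of the 24016 tested a single symbol, and symbols were updated through the Entrez ID, which changed no member.

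Changes were tested with limma 3.58.1 (R 4.3.3; lmFit, eBayes), 2-sided, with the replicate number as a block. Deviations from the group means correlated across probe sets with r = 0.740, 0.694 and 0.845 between arrays of equal number (minimum set at 0.1) and -0.683 to 0.185 between others; the pairing rests on this and on the study's culture of cells of each cow in both conditions. The SEs, intervals and p-values of the paired fit combine the spread of these 3 pairs with a spread shared by all probe sets. The pairs gave 2 residual degrees of freedom. The shared spread had an SD of 0.144 log2 units and 6.72 degrees of freedom, so it weighed more than the pairs. The fit was run on data simulated from its own model, which checks the code and not whether the model holds for these arrays. The members, the lists and the paired fit were chosen with earlier results of these data known. All member probe sets are described. Of related lists, genes that passed, or else the 2 probe sets with the smallest p, are named, and ACTB, SRF, FHL1, MYH11, DES, TLN1, CFAP141 and ALG14 were named after their values were seen. Alternatives were the fit without the block, quantile or median scaling, a robust prior, gene means, leaving out pairs or arrays (counts without single arrays were added after seeing the data) and the methods' unequal-variance test. Figures were drawn with matplotlib 3.10.9.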

Additional observations from a re-analysis of the deposited data

How the results depend on the processing

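The 8 calls among the contractile probe sets kept their direction under all 15 alternatives, and what varied was whether they passed. Dropping the replicate block with all 6 arrays, the unequal-variance test and the robust prior leave the mean change as it is. Direction could not differ in those. Without a pair of arrays it could not differ either, because every pair of each of the 8 had the same sign. Gene means could not turn it, because the probe sets averaged had changes of the same sign. Subtracting array medians shifts every change alike. Without the replicate block, limma called 0 higher and 0 lower of the members, 0 and 0 of all probe sets (against 585 and 832 in the paired fit) and 0 of each related list, so SMTN, PFN1 and FHL2 lost their calls too. The same counts of 0 came from the methods' unequal-variance test and from limma without the replicate block on any 5 of the 6 arrays. After quantile normalization the paired fit called 2 members higher (TAGLN and TAGLN2) and 2 lower (both probe sets of MYLK), 377 and 443 of all probe sets, and neither SMTN nor PFN1. Subtracting array medians, the robust prior and gene means changed none of the 8 calls, although the mean of both TPM2 probe sets had a change of -0.52 log2 units against -0.92 for probe set a. Leaving out a pair of arrays gave 0 to 2 members higher and 0 to 6 lower, 0 being without replicate 2, 272 to 590 of all probe sets higher and 267 to 747 lower, and for the actomyosin list 0 to 1 higher.

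Of the values that changed sign, none had passed the test. TPM4 ran from -0.022 to 0.15 log2 units when a pair was left out. Without the replicate block, leaving out the untreated array of replicate 1 gave -0.069 for TPM1 probe set a, -0.017 for its probe set b and -0.072 for TPM4, the untreated array of replicate 2 gave -0.13 for TPM4, and the untreated array of replicate 3 gave 0.15 for TPM2 probe set b. Leaving out the TGF-β1 array of replicate 1 gave 0.10 for TPM2 probe set b, and that of replicate 3 gave -0.081 for TPM1 probe set a and -0.32 for TPM4. Of the 8 that had passed, none moved by over 1.5 times when a pair was left out, but some did without the replicate block when a single array was. Without the TGF-β1 array of replicate 3, TAGLN2 came to 0.31, MYLK to -0.58 (a) and -0.48 (b), TPM2 probe set a to -1.46 and TPM3 probe set a to -0.81. Without the untreated array of replicate 3, TPM2 probe set a came to -0.53 and TPM3 probe set a to -0.33, and without that of replicate 2, TAGLN2 to 0.40. Without the TGF-β1 array of replicate 1, TPM2 probe set a came to -0.57, and without that of replicate 2, both TPM3 probe sets to -0.33. The 3 arrays per group limit all of these values, and the causes were not tested.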
